A study of Mus musculus with 12 samples.

Results

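Moderately long CDR3s are the heavy chain CDR3s of 16 to 19 residues, counted between the conserved cysteine that closes the VH segment and the conserved tryptophan of J, with both anchors left out. They were chosen by this length alone among translated *IGH* sequences without a stop. The cysteine was that of a [YF][YF]C ending at residue 16 to 30, and the tryptophan that of the last WG[QAT]GT. Of 546610 translations with a CDR3 in 12 libraries, 26699 (4.88%) were members, and they held 15790 distinct CDR3s and 72318 reads. The comparison class was the 286620 translations with a CDR3 of 9 to 12 residues, which made up 50.8% to 56.6% of the translations of a library.

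The libraries came from splenic B cells of 14 week old female *MRL-lpr* mice, a lupus-prone strain homozygous for the *Fas* lpr mutation, so control mice carry it too. In 1 group 6 libraries came from mice given Control SMO, and in the other 6 libraries came from mice given LFPRLR SMO. An SMO is a splice-modulating morpholino oligomer delivered by an implanted pump, and LFPRLR SMO blocks the splicing that makes the long form of the prolactin receptor. Transcripts were amplified with primers for the J558 VH family and Cμ, so other VH families and switched isotypes were not sampled.

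The CDR3 of a heavy chain is the most variable loop of the antigen-binding site. It is built when a D segment is joined to a J segment and then to VH, with bases trimmed from the ends and untemplated bases added by terminal transferase. Longer loops arise where little is trimmed, where the J segment is long, or where D segments and added bases contribute more residues. The germline D segments of the mouse are most often read in a frame rich in tyrosine. Long and positively charged loops are often discussed in autoreactive repertoires of lupus-prone mice.

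The sequences below are the most-read member of each library, followed by another member found in many libraries and by the most-read CDR3 of 9 to 12 residues for comparison. All read 5′ to 3′ from the first base after the cysteine codon to the last base before the tryptophan codon, and capitals mark in-frame tyrosine codons.
Control SMO replicate 3: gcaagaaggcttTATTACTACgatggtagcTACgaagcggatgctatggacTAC
Control SMO replicate 4: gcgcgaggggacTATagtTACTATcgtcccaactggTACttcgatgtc
Control SMO replicates 5 and 7: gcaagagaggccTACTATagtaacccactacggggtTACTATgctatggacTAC
Control SMO replicate 8: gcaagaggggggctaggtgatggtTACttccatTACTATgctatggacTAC
Control SMO replicate 9: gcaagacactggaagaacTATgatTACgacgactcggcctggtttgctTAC
LFPRLR SMO replicate 3: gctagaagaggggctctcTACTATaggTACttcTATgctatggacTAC
LFPRLR SMO replicates 4 and 5: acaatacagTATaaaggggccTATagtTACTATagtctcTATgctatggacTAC
LFPRLR SMO replicates 6 and 8: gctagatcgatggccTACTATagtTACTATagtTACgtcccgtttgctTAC
LFPRLR SMO replicate 7: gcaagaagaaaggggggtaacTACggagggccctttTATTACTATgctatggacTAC
Member in 11 libraries: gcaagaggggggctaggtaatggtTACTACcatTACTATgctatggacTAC
CDR3 of 9 residues: aagaatTATaggTACgacgttgctTAC
These members encoded 3 to 6 tyrosines in 16 to 19 residues, against 3 in the 9 residues of the comparison CDR3. Of these 10 members 7 ended in J4, 2 in J3 and 1 in J1.

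Libraries differed in depth and in what they shared, which bears on every result. The tables held 130635 to 227202 reads in 11 libraries, and LFPRLR SMO replicate 6 held 627 reads and 20 members. The other libraries held 1145 to 4694 members. Among the 50 most-read translations, 44 were common to replicates 5 and 7 of the control group, 35 to its replicates 4 and 8, and 35 to replicates 4 and 5 of the LFPRLR SMO group. Results were therefore also computed with each of these pairs averaged as 1 library. A second version of the Cμ end marked 33.2% to 40.1% of the sequences of 6 libraries (set 1, with 3 libraries of each group) and at most 2.26% in the other 6 (set 2). No molecular identifiers are described, so reads and translations are not independent molecules, and intervals cover counting error only.

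Moderately long CDR3s made up 3.20% to 7.03% of the translations in control libraries, with a median of 4.73%. In LFPRLR SMO libraries they made up 3.02% to 6.45%, with a median of 4.30%. The groups overlapped over nearly the whole range, and the highest share was in Control SMO replicate 3 and the next in LFPRLR SMO replicate 8. The means were 4.88% ± 1.34 (SD, n = 6) and 4.47% ± 1.22 (SD, n = 6), and the medians did not differ beyond the spread between libraries by an exact two-sided Mann–Whitney *U* test (difference -0.44 percentage points, exact p = 0.589). The smallest p this design can give is 0.00216. The share in LFPRLR SMO replicate 6 was 4.06% with a 95% Wilson interval of 2.64% to 6.18%, which spans most of the other libraries. Within set 1 the difference was -0.13 percentage points (exact p = 1) and within set 2 it was -1.61 (exact p = 0.7), where 3 against 3 libraries cannot give a p under 0.1.

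**Figure D1:**
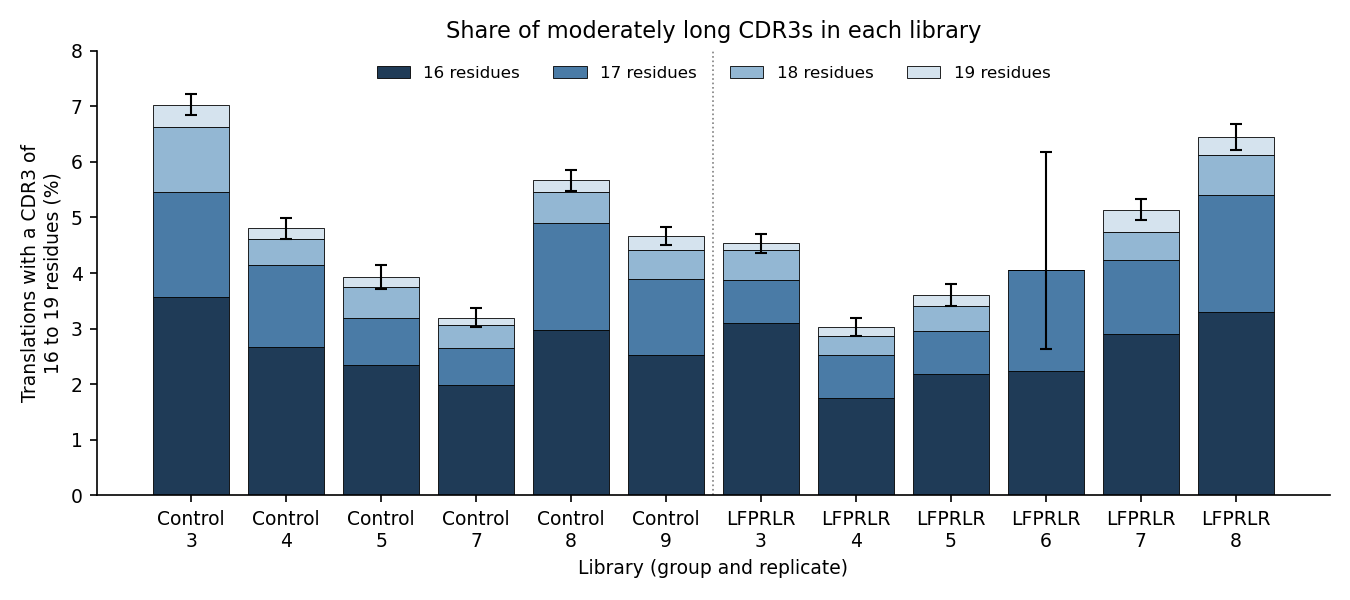
Share of translations with a CDR3 of 16 to 19 residues in each library (bars, split by exact length), with 95% Wilson intervals of the whole share. Shares ran from 3.02% to 7.03%, the groups overlapped, and the interval was wide in LFPRLR SMO replicate 6.

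Within the class, shorter members dominated. A median of 56.0% of members had 16 residues, 26.4% had 17, 11.4% had 18 and 4.73% had 19. At the edges of the class, CDR3s of 15 residues made up 3.72% to 6.52% of translations, those of 16 residues 1.76% to 3.57%, those of 19 residues at most 0.403% and those of 20 residues 0.0388% to 0.406%. None of the 23 exact lengths from 3 to 25 residues differed between the groups after Benjamini-Hochberg adjustment (0% called), and 1 length, outside the class, had an unadjusted exact p under 0.05. For 16, 17, 18 and 19 residues the exact p was 0.818, 0.699, 0.310 and 0.699, each with an adjusted p of 0.980. CDR3s of 18 residues made up 1.17% of translations in Control SMO replicate 3, against 0.421% to 0.559% in the other control libraries.

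J segments were used differently by members and by CDR3s of 9 to 12 residues in every library. J4, whose germline end adds 6 residues before the tryptophan, closed 43.9% to 57.3% of members (median 52.6%), against 23.03% to 30.3% of the comparison class (median 26.4%). J1, which also adds 6, closed a median of 16.4% of members against 7.86%. J2 and J3, which add 4, closed 14.3% and 16.03% of members against 34.7% and 29.7%. Over the 12 libraries, 7 of 10 features tested (70%) differed by an exact two-sided sign-flip test after adjustment, 4 of them higher in members (40%) and 3 lower (30%).

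All 4 J ends were among them. J1 and J4 add more residues to the loop than J2 and J3, so a rule by length bears on J use directly. The 4 shares of a library are also bound to each other, as they make up nearly the whole. The directions of these differences are thus not independent of the rule, and the tests measure how regular they were across libraries. J4 was higher by 24.1 ± 4.20 percentage points (SD, n = 12 libraries) and J1 by 8.40 ± 2.71, in 12 of 12 libraries each. J2 differed by -20.8 ± 1.99 and J3 by -11.6 ± 4.61 percentage points, both lower in 12 of 12 libraries. The adjusted exact p was 0.000698 for each, from the smallest p that 12 libraries allow (0.000488). With the 3 pairs averaged, all 7 features stayed called, each with an adjusted exact p of 0.00558. The smallest p is then 0.00391. For J3, the call was lost when only translations with at least 2 reads were counted (difference -6.06, adjusted exact p = 0.508), a setting that left 1 member in LFPRLR SMO replicate 6. Without that library it was -12.8 (adjusted exact p = 0.0014, a setting chosen after the data were seen).

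**Figure D2:**
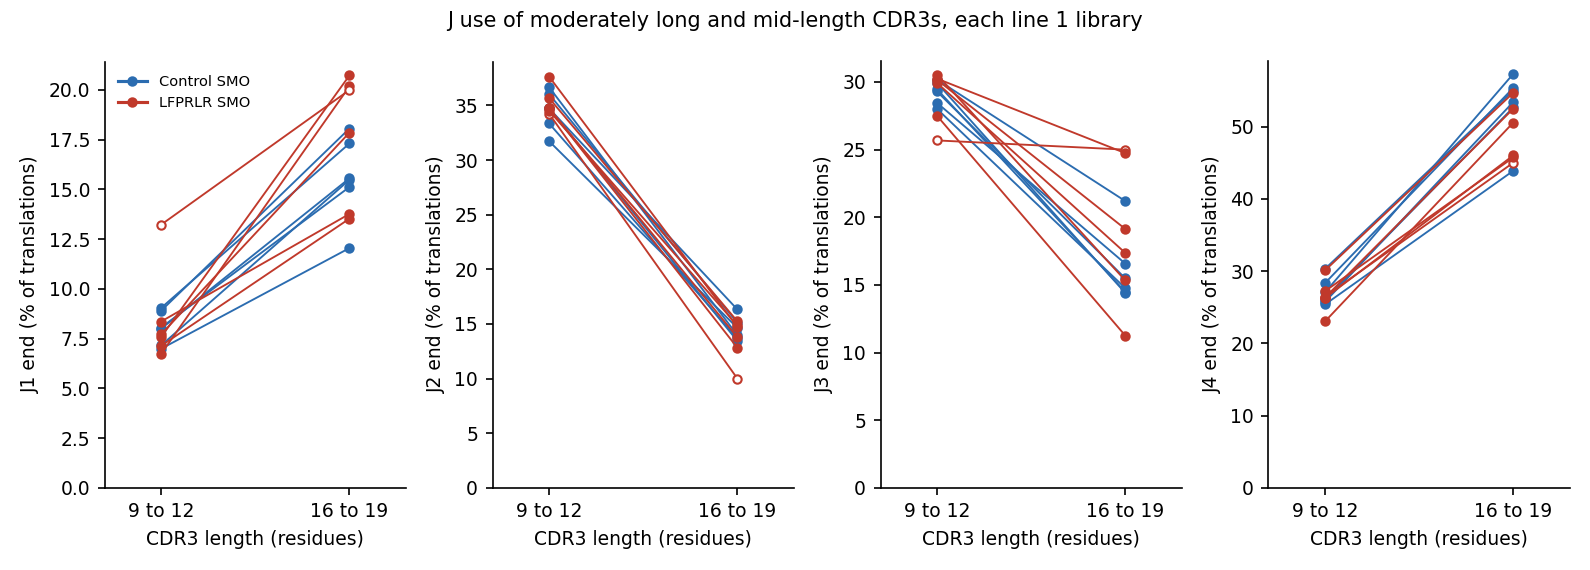
Share of translations closed by each J end in CDR3s of 9 to 12 and of 16 to 19 residues, 1 line per library (blue, Control SMO, red, LFPRLR SMO, open points, LFPRLR SMO replicate 6). The J1 and J4 lines rose and the J2 and J3 lines fell in all 12 libraries.

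Members also kept more of the J segment they used. A mean of 4.52 J residues was kept in the median library, against 3.35 in the comparison class, and the J4 end was kept in full in 42.7% of members that used it, against 15.97%. J3 was kept in full in 58.4% against 32.9%. The part ahead of J was longer too, at 12.1 against 7.29 residues, so most of the added length lay in the stretch of VH end, D and added bases. These values describe how the length was composed and were not tested, since a longer CDR3 must hold more residues somewhere. Members began with alanine and arginine, the usual end of VH, in 86.0% against 72.8%. The VH end YFC, in which phenylalanine precedes the cysteine, had a median share of 17.3% in members and 17.9% in the comparison class, and was higher in members in 5 libraries and lower in 7.

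D segments leave recognisable words in the loop. The bases below are the commonest that encoded each of 4 words in members, chosen to show how the words relate to each other, with tyrosine codons in capitals.
YGSS: TACggtagtagc
YDYD: TATgatTACgac
YGNY: TATggtaacTAC
YDGS: TACgatggtagc
YGSS is the core of Ighd1-1 in the tyrosine frame of the reference strain, and YDYD and YGNY come from members of the Ighd2 family. YDGS was noticed after the members had been read, so its values carry no test. No germline D sequences of the MRL strain were used, so the D segment behind YDGS was not assigned. The share of YGSS is that of a word of the reference strain and not a measure of Ighd1-1 use in these mice.

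YDYD was held by 1.49% to 9.59% of members, with a median of 3.05%, and by 0.612% to 1.56% of CDR3s of 9 to 12 residues. It was higher in members in 12 of 12 libraries, by 2.85 ± 2.29 percentage points (SD), with an adjusted exact p of 0.000698. Counted per window of 4 residues, which allows for the longer loop, it was 0.224 against 0.114 per 100 windows. The highest value, in LFPRLR SMO replicate 3, came from 252 translations of 67 distinct CDR3s, and the next, in Control SMO replicate 9 (6.30%), from 199 translations of 88. The highest share in the remaining control libraries was 3.32%.

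YGNY had medians of 2.83% in members and 1.78% in the comparison class and was higher in 10 of 12 libraries. The adjusted exact p was 0.107. LFPRLR SMO replicate 6 had no member with it and decided the call: without that library the difference was 1.10 percentage points (adjusted exact p = 0.00244). Per 100 windows the mean difference was -0.0575 and was not called (adjusted exact p = 0.202), with members higher in 4 libraries and lower in 8, or in 7 without LFPRLR SMO replicate 6. Against CDR3s of 13 to 15 residues it was lower by a difference of -1.65 percentage points (adjusted exact p = 0.00305).

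YGSS was nearly absent. It was found in 52 members, 41 of them in Control SMO replicate 8, 9 in Control SMO replicate 3 and 1 each in Control SMO replicates 4 and 9. The 41 were of 41 distinct CDR3s, so they were not copies of 1 sequence. No LFPRLR SMO library had a member with YGSS, where a count of 0 allows a share of up to 0.110% in the one with most members and of up to 15% in replicate 6. In the comparison class it reached 0.112% at most, again in Control SMO replicate 8. The class difference was not called (adjusted exact p = 0.354).

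YDGS was by far the commonest of the 4 words. It stood in 15% to 35.7% of members, with a median of 31.7%, and in 3.64% to 6.35% of CDR3s of 9 to 12 residues, and the ranges did not meet. The bases shown for it encoded 5559 of 5776 base sequences (96.2%), and those with a flanking codon on each side were most often TACTACgatggtagcTAC. Between 3 and 1035 distinct members of a library held it. It was held by a median of 47.4% of members that used J1 and 24.1% of those that used J4, over the 11 larger libraries. By exact length the median share was 31.2% at 16 residues, 29.8% at 17, 34.4% at 18 and 29.3% at 19. At least 1 of the 4 words was found in a median of 36.6% of members and 7.46% of the comparison class.

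The next commonest words of members, YYDG and DGSY, overlap YDGS. YYDG stood in a median of 29.2% of members against 3.37% of the comparison class, and DGSY in 18.5% against 3.31%. After them, SYYS stood in a median of 16.7% of members against 0.939% of the comparison class, YYSY in 16.1% against 0.622%, YYYD in 14.5% against 0.817% and YSYD in 12.9% against 0.277%. These words overlap each other, and the most-read member of LFPRLR SMO replicate 8 repeats tyrosine, tyrosine, serine. All of these words were chosen after their values were seen, so they are descriptions only.

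Tyrosine was the residue that most set members apart. It made up 26.1% to 29.5% of member residues, with a median of 27.1%, against 19.7% to 21.5% in the comparison class, with a median of 20.3%. The difference of 6.95 ± 1.09 percentage points (SD) held in 12 of 12 libraries (adjusted exact p = 0.000698 among the 10 features). Ahead of the J part tyrosine made up a median of 22.9% of residues against 11.97%, and was higher in 12 of 12 libraries. A run of at least 2 tyrosines was found in 83.6% of members against 23.9%, and 4 or more tyrosines in 82.4% against 10.9%. Within each J end tyrosine was higher in members in 12 of 12 libraries, by 6.13 percentage points for J2 up to 8.21 for J1.

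Across 20 amino acids, 6 were higher in members (30%) and 8 lower (40%) after adjustment. Beside tyrosine, serine rose by 1.96 ± 0.862 and methionine, which the J4 end supplies, by 0.97 ± 0.352 percentage points. The largest decreases were in alanine (-3.01 ± 0.948), phenylalanine (-2.17 ± 0.294) and arginine (-1.98 ± 0.767). Phenylalanine stands in the germline ends of J1, J2 and J3 and not in that of J4. When translations were weighted by reads, 7 amino acids were called in place of 14, and arginine was no longer among them (-1.44, adjusted exact p = 0.0879).

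Net charge, the arginines and lysines minus the aspartates and glutamates, was below 0 on average in members of every library. The mean per CDR3 ran from -0.918 to -0.423 with a median of -0.699, against -0.327 to -0.0995 with a median of -0.171 in the comparison class. The difference of -0.537 ± 0.152 (SD) was in 1 direction in 12 of 12 libraries (adjusted exact p = 0.000698). A negative net charge was found in 58.3% of members against 37.4%, and a positive one in 17.7% against 26.9%. Of the charged residues, arginine was lower as a percentage of residues, glutamate was higher by 0.35 ± 0.174 (adjusted exact p = 0.00163) and lysine was lower by a difference of -0.25 ± 0.382 (adjusted exact p = 0.0314). Aspartate made up 11.5% of member residues and 11.2% in the comparison class (difference 0.04, adjusted exact p = 0.857), though a longer loop holds more of it, at 1.91 against 1.19 per CDR3. Per CDR3, members also held more glutamate (0.316 against 0.162), arginine (1.35 against 1.09) and lysine (0.108 against 0.0930). The aspartate percentage was called higher with each distinct CDR3 once (0.371, adjusted exact p = 0.00977) and with CDR3s within 1 residue joined (0.609, adjusted exact p = 0.00244). It was lower but uncalled with reads as weights (-0.719, adjusted exact p = 0.191) and with at least 2 reads (-0.818, adjusted exact p = 0.655). Net charge is a sum over the loop and so depends on its length, which the rule sets. The lysine call was lost on leaving out any of 7 libraries, and without LFPRLR SMO replicate 6 the difference was -0.16 (adjusted exact p = 0.0586). It was also lost with the pairs averaged (adjusted exact p = 0.0541), with reads as weights (difference -0.46, adjusted exact p = 0.103) and against 13 to 15 residues (difference -0.10, adjusted exact p = 0.0984), and the glutamate call with reads as weights (adjusted exact p = 0.0586) or with at least 2 reads (adjusted exact p = 0.134).

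**Figure D3:**
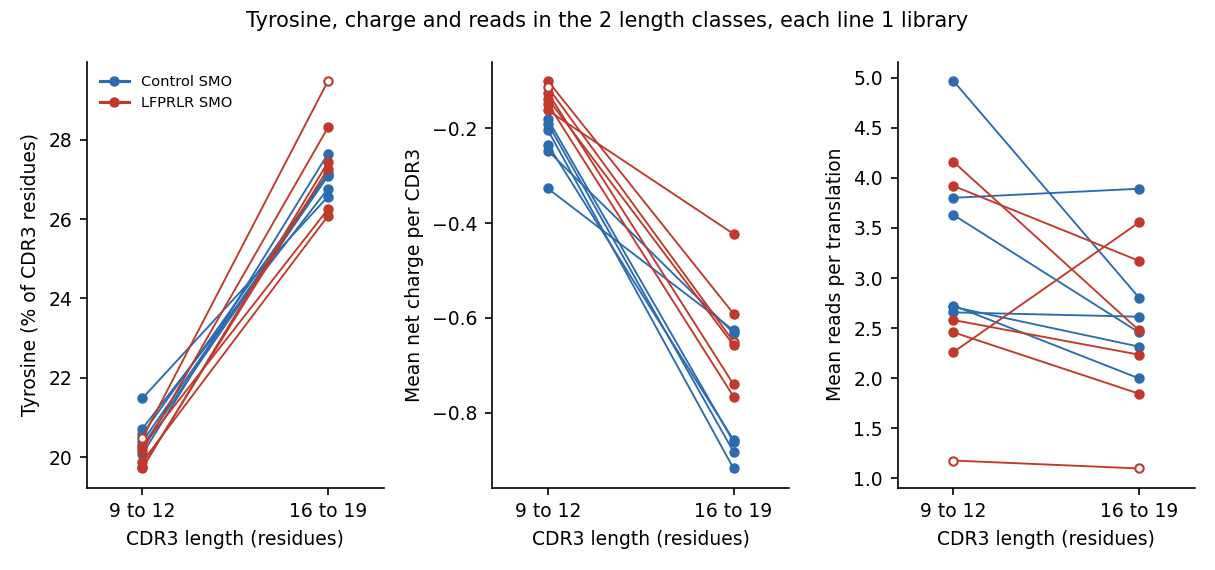
Tyrosine content, mean net charge and mean reads per translation in CDR3s of 9 to 12 and of 16 to 19 residues, 1 line per library (open points, LFPRLR SMO replicate 6). Tyrosine rose and charge fell in all 12 libraries, while reads per translation fell in 10 and rose in 2.

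These features changed stepwise with length and did not start at 16 residues. J4 closed a median of 29.2% of CDR3s of 10 residues, 41.4% at 14, 47.0% at 15, 48.8% at 16 and 61.9% at 18. Tyrosine ran from 19.9% at 10 residues over 25.6% at 15 to 26.7% at 16 and 28.5% at 18. Mean net charge was -0.200 at 10 residues, -0.586 at 15, -0.723 at 16 and -0.978 at 18. The members just inside the lower bound were thus close to the CDR3s just outside it.

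**Figure D4:**
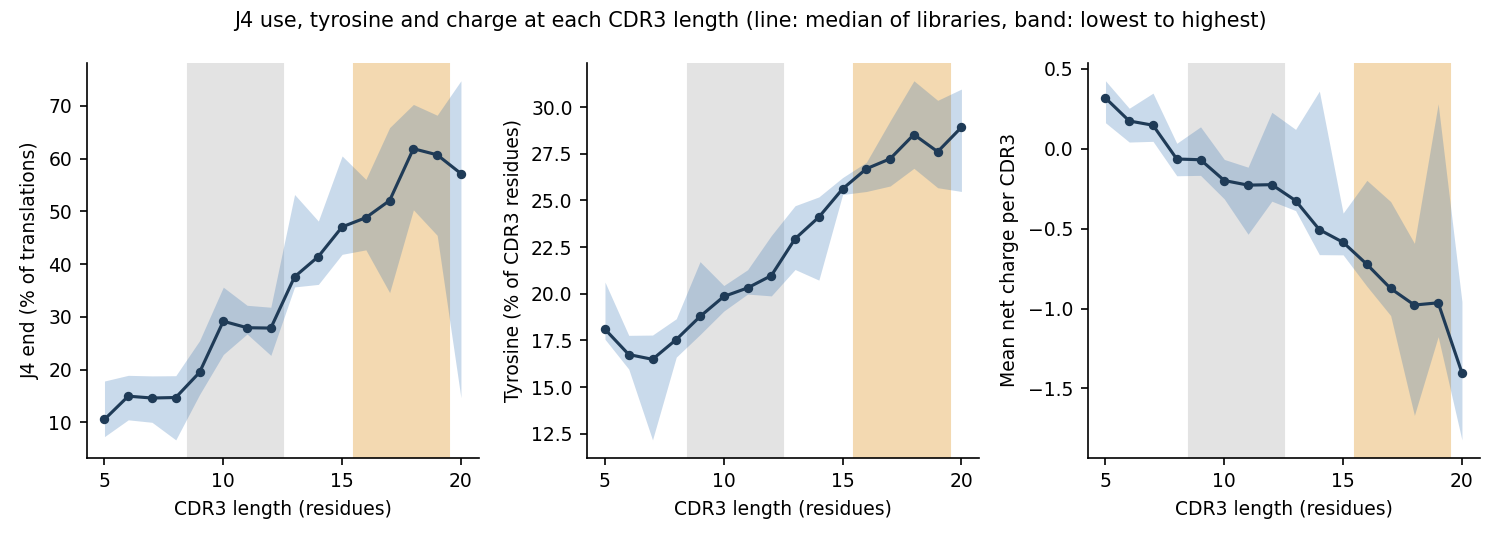
J4 use, tyrosine content and mean net charge at each CDR3 length from 5 to 20 residues, as the median (line) and range (band) of libraries with at least 20 such translations. Grey marks 9 to 12 residues and orange 16 to 19, and the J4 median went from 29.2% at 10 residues to 61.9% at 18.

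Between the groups, none of the 10 features of members was called (0%). None had an unadjusted exact p under 0.05 either, and the smallest exact p was that of YGSS (0.0606, adjusted 0.440). With the 3 pairs averaged the YGSS difference was -0.112 percentage points (unadjusted exact p = 0.0476), and without Control SMO replicate 5 or 7 it was -0.0416 (unadjusted exact p = 0.0152). Control SMO replicates 4 and 9 held 1 such member each, below the share of 3 counts there (0.125% and 0.0949%). The zeros of LFPRLR SMO libraries allow 0.110% to 15%, so these ranks rest in part on values that the depth does not resolve. J4 closed a median of 54.2% of members in control libraries and 48.3% in LFPRLR SMO libraries (exact p = 0.132, adjusted 0.440), with ranges of 43.9% to 57.3% and 45.0% to 54.7%. In the LFPRLR SMO group 1 library exceeded the control median, and the control library that overlapped most was replicate 9. Leaving out 1 library at a time gave differences of -8.19 to -3.64 percentage points, and leaving out that control library alone gave an unadjusted exact p under 0.05 (difference -6.71, exact p = 0.0173). Mean net charge was -0.860 in the control median and -0.654 in the LFPRLR SMO median (exact p = 0.132, adjusted 0.440), and 6 of 6 libraries from mice given LFPRLR SMO exceeded the control median. Weighted by reads the charge difference was 0.455 with an unadjusted exact p of 0.0260, and 0 of the features weighted in this way passed the adjustment. With at least 2 reads the charge difference was 0.285 (unadjusted exact p = 0.0649). It was smaller with each distinct CDR3 counted once (0.0442, unadjusted exact p = 0.589) and with CDR3s within 1 residue joined (0.0301, unadjusted exact p = 0.937). The median tyrosine content was 27.1% and 27.4% (exact p = 0.589).

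The difference between members and the comparison class was set against group in the same way, and none of the 10 features was called (0%). YGSS alone had an unadjusted exact p under 0.05 (exact p = 0.0260, adjusted 0.260), with the same limit of few counts. For J4, members exceeded the comparison class by a median of 26.8 percentage points in control libraries and 22.2 in LFPRLR SMO libraries (exact p = 0.240, adjusted 0.481). For tyrosine the medians were 6.64 and 7.62 (exact p = 0.240, adjusted 0.481).

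Reads were spread unevenly over members. A member translation had a mean of 1.10 to 3.89 reads, with a median over libraries of 2.47, against 1.18 to 4.97 with a median of 2.72 in the comparison class. The mean was lower in members in 10 of 12 libraries, but the difference of -0.549 ± 0.890 (SD) was not called (adjusted exact p = 0.0726). LFPRLR SMO replicate 3 and Control SMO replicate 8 went the other way, and without the former the difference was -0.717 (adjusted exact p = 0.00488). The difference was also called within J ends at equal weight (-0.888, adjusted exact p = 0.00439), per distinct CDR3 (-2.14, adjusted exact p = 0.0122) and with CDR3s within 1 residue joined (-3.87, adjusted exact p = 0.00244). It stayed uncalled under the other 16 alternatives run. These include the 3 averaged pairs (-0.422, adjusted exact p = 0.225) and translations with at least 2 reads (-1.04, adjusted exact p = 0.218). A median of 67.2% of members was read once, against 64.3%, and 2.65% against 3.81% had at least 10 reads.

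A single CDR3 could hold much of the class. The commonest member took 3.39% to 48.7% of member reads, with a median of 14.9%, against 2.55% to 13.2% (median 5.65%) for the commonest CDR3 of 9 to 12 residues. The member took the larger share of its class in 9 of 12 libraries, or in 8 without LFPRLR SMO replicate 6. The classes were of unlike size, with 1145 to 4694 members against 16519 to 35582 translations of the comparison class outside that library. These shares were not corrected for class size. The most-read translation had a median of 409.5 reads in members and 2243.5 in the comparison class. It was lower in members in 10 of 12 libraries. The 10 commonest members together took 18.2% to 67.0% of member reads in the 11 larger libraries. In LFPRLR SMO replicate 6 they took 68.2% of 22 member reads.

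**Figure D5:**
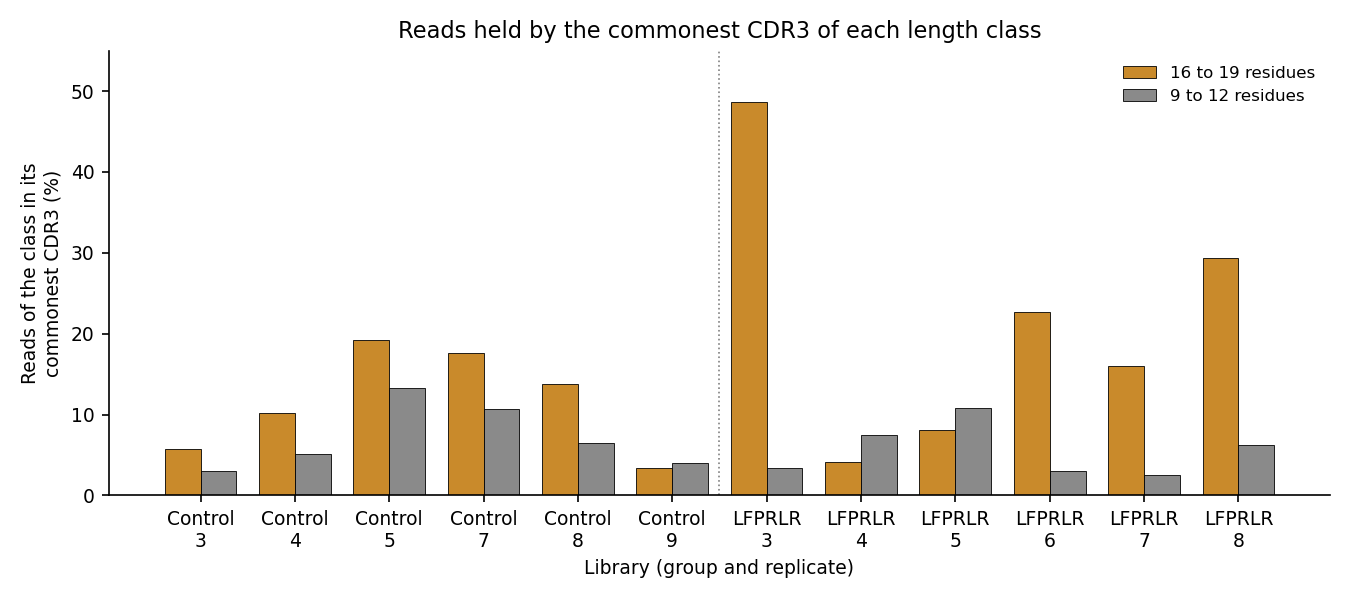
Percent of the reads of each length class that belonged to its commonest CDR3, by library (orange, 16 to 19 residues, grey, 9 to 12 residues). LFPRLR SMO replicate 3 stood highest at 48.7%, followed by LFPRLR SMO replicate 8 at 29.4%.

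The member that stood out was that of LFPRLR SMO replicate 3, shown above, with J4, 16 residues, 5 tyrosines and a net charge of 2. It had 4548 reads, 48.7% of member reads and 3.17% of all reads with a CDR3 in that library, in 369 translations. CDR3s that differed from it or from another more-read member at 1 residue formed joined families, and the largest made up 16.4% of member translations there, against 1.68% to 5.72% in the other libraries with over 20 members. The most-read member of LFPRLR SMO replicate 8 had 2528 reads, 29.4% of member reads, with J3, 6 tyrosines and a net charge of 1. That of LFPRLR SMO replicate 7 had 974 reads (15.98%) and a net charge of 2. In control libraries the most-read members had 214 to 1747 reads and net charges of -2 to 0, and in LFPRLR SMO libraries 5 to 4548 reads and net charges of 0 to 2. These charges follow from 1 sequence per library, and 3 pairs of libraries shared theirs, so they are given without a test.

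Members were shared between libraries less than CDR3s of 9 to 12 residues. Of 15790 distinct members, 1325 (8.39%) were found in at least 2 libraries and 310 (1.96%) in both groups. In the comparison class, of 109383 distinct CDR3s, 20.2% were found in at least 2 libraries and 8.12% in both groups. The classes differ in size and in loop length, and these shares were not corrected for either. Pairs with common abundant sequences shared many members: Control SMO replicates 5 and 7 had 236 in common, which is 35.1% and 27.0% of the distinct members of each. Control SMO replicate 3 stood at the other end, with 0.824% of its 3397 distinct members found in another control library.

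Sharing between the groups was higher within set 1 of the sets by Cμ end. Leaving out LFPRLR SMO replicate 6, a library of one group and a library of the other shared a median of 26 members (8 to 76) within a set and 11 (5 to 25) across sets. Within set 1 the median was 50, and within set 2 it was 11, as across sets. Of the 310 members found in both groups, 235 were found in set 1 libraries of both groups, and 2 reached at least 10 reads in a library of each group. The most-read member of LFPRLR SMO replicate 3 was read 4926 times in 6 of 6 set 1 libraries and in no set 2 library. The most-read member of LFPRLR SMO replicate 8 was read 2541 times in 5 set 2 libraries and in no set 1 library. How members came to be in several libraries was not tested.

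The member in most libraries was the most-read one of Control SMO replicate 8. It was found in 12 of 12 libraries, with 1747 reads there, 286 in Control SMO replicate 4 and 1 to 14 in each of the others. The member in 11 libraries had 1507 reads in Control SMO replicate 8 and 565 in Control SMO replicate 4, and at most 13 elsewhere. The most-read member of Control SMO replicate 4 was in 8 libraries, with 637 reads there, 1127 in Control SMO replicate 8 and at most 23 in the 6 other libraries that held it. These 3 had their highest reads in the same pair of libraries. The most-read member of LFPRLR SMO replicate 7 was also in 8 libraries, with 974 of its 1009 reads there.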

How the data were processed

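*IGH* transcripts of splenic B cells were PCR-amplified with J558 VH and Cμ primers and sequenced on a MiSeq in paired-end mode, 1 library per sample. For each library the authors deposited 2 tables of read counts, 1 per unique nucleotide sequence and 1 per unique translation. The counts were not normalized, and the merging, trimming and filtering steps are not given in the sources used here. The study's methods name IMGT HighV-QUEST and VDJTools, whose output was not used. Reads with an undetermined base carried no translation (1.24% to 2.17% of reads). In LFPRLR SMO replicate 5 the translated table summed to 171560 reads and the nucleotide table to 167962, and 2 length columns added by the authors to the latter were not used.

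Each translation without a stop was counted once, and 88.3% to 92.8% of the rows of a library gave a CDR3. J ends were named from the residues after the tryptophan, with at most 1.83% of members left unnamed, and J residues kept were counted back from the tryptophan as a match to the germline end. Sequences were not mapped to a genome. Bases shown are the most-read encoding in the nucleotide table. Groups, taken from the treatment labels, were set against each other as medians with the Mann–Whitney *U* test of the study, run as an exact two-sided test (924 arrangements). Length classes were compared within libraries by a two-sided exact sign-flip test of the mean difference (4096 arrangements). Benjamini-Hochberg adjustment was over 23 lengths, 10 features or 20 amino acids, with a threshold of 0.05. Precision follows from 493 to 67724 translations with a CDR3 per library, and shares have 95% Wilson intervals. A count of 0 was taken to allow 3 counts. The titles number the libraries separately, and p-values measure the spread between these libraries, which for the 3 pairs may be technical.

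The members named were the most-read of each library and the 3 in most libraries, with ties ordered by reads over all libraries. Named amino acids were those with the 3 largest differences in each direction and the charged residues and tyrosine. The members and lists were chosen with earlier results of these data known. Alternatives were weighting by reads, distinct CDR3s, at least 2 reads, other length bounds, equal depth (100 draws), nucleotide sequences, CDR3s of 13 to 15 residues as the other class, motifs per window, equal weight of J ends, Cμ sets, averaged pairs, the replicate block and each library left out. Joining CDR3s that differ at 1 residue, leaving out the smallest library with the pairs averaged, and leaving it out with at least 2 reads were added after the data were seen. Replicate numbers 3, 4, 5, 7 and 8 occur in both groups, whose mice differ. The location of CDR3s and the tests were tested on simulated data. Python 3.11.15, NumPy 2.4.6, SciPy 1.17.1 and matplotlib 3.10.9 were used.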

Additional observations from a re-analysis of the deposited data

Results flagged for a closer look

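In 30 groups of 6 libraries, 1 library lay far from the other 5 in 6 cases, all in the control group, where chance sets 1 apart in about 1 in 20 groups. That rate holds for independent groups, and these were not independent. J3, J4 and YDYD were measured on the same members, and pairs of control libraries shared abundant sequences. LFPRLR SMO replicate 6, with 20 members, had the lowest YGNY share (0%) and the highest tyrosine content (29.5%) of its group, which widens its range. CDR3s of 18 residues made up 1.17% of translations in Control SMO replicate 3, against 0.421% to 0.559% in the other control libraries. Among members of Control SMO replicate 9, J3 closed 21.2% (others 14.4% to 16.6%), J4 closed 43.9% (others 52.6% to 57.3%) and YDYD stood in 6.30% (others 2.62% to 3.32%). YGSS stood in 1.26% of members of Control SMO replicate 8, against at most 0.192% in the other control libraries. YGNY stood in 2.18% of members of Control SMO replicate 5, against 2.83% to 3.11%, although that library shares abundant sequences with Control SMO replicate 7, which lay at 3.11%.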

How the results depend on the processing

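The share of members did not pass the test between groups under any of the 27 alternatives. Its difference of -0.44 percentage points changed sign when translations were weighted by reads (0.00306, exact p = 0.818) and when the anchors were counted in the length (1.22, exact p = 0.937), and leaving out 1 library gave -0.678 to -0.199. With 1 library left out, 7 to 8 features and 13 to 15 amino acids were called between length classes and 0 features between groups. Weighted by reads, 7 amino acids were called in place of 14. The 5 shared replicate numbers do not pair mice (the correlation of deviations in the member share was 0.187), and 5 pairs cannot give a p under 0.0625. With the replicate block the share differed by -0.318 (exact p = 0.688), and J2 (0.0847), YDYD (-0.770) and tyrosine (-0.215) changed sign between groups, none of them called in either fit.

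Other uncalled values between groups changed sign too. J1 was -0.00103 weighted by reads and -0.466 with at least 2 reads, and reads per translation was 0.257 with at least 2 reads. YDYD was -0.0979 weighted by reads, -0.273 with each distinct CDR3 once, -0.985 with at least 2 reads, -0.256 with CDR3s within 1 residue joined and -1.02 to 1.06 with 1 library left out. J2 was -0.512 to 0.420 with 1 library left out, and turned on leaving out 3 control and 3 LFPRLR SMO libraries in turn (0.289 and 0.420). Between classes, aspartate was -0.719 weighted by reads, -0.818 with at least 2 reads, -0.0195 against 13 to 15 residues and -0.0338 to 0.166 with 1 library left out (-0.0270 without Control SMO replicate 3 and -0.00436 without Control SMO replicate 8). YGNY was -0.0575 per 100 windows and -1.65 against 13 to 15 residues, and YGSS was -0.0299 against 13 to 15 residues. The cause of these changes was not tested. No translation held an undetermined residue, so leaving such residues out gave no separate value.

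Of the values of single features and amino acids between the length classes under alternatives, 265 kept direction and call, 14 lost a call, 10 gained one and 9 changed direction. The 7 features called in the report kept theirs under each alternative run except J3 with at least 2 reads. Depth limits what can be said of LFPRLR SMO replicate 6, where 3 counts are 15% of its members, and of YGSS elsewhere, where they are 0.0639% to 0.262%.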

Other observations

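Members with cysteine made up a median of 2.31% of the class, against 1.80% of CDR3s of 9 to 12 residues, and were more frequent in 10 of 12 libraries. An N-glycosylation site was found in 0.950% against 0.423%, also higher in 10 of 12. Both were read from the loop alone and were not tested. A longer loop offers more positions for either.

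Outside the J part, the mean net charge of members was 0.0634 in the median library, against 0.458 in the comparison class, and was lower in 12 of 12 libraries. The germline J1, J2 and J4 ends each carry an aspartate. Inside each J end the mean net charge was lower in members in 12 libraries for J1 and J2, 11 for J4 and 10 for J3. In members closed by J3, whose germline end carries no charged residue, the median was -0.249, against 0.263 in the comparison class.

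YDGS stood in a median of 33.2% of members in control libraries (28.3% to 35.7%) and 26.9% in LFPRLR SMO libraries (15% to 32.2%), and these ranges overlapped. The 15% was 3 of 20 members in LFPRLR SMO replicate 6, and the next lowest share was 21.6% in LFPRLR SMO replicate 3. No test was made, since the word was picked from these members.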
